A study of Mus musculus with 6 samples.

Results

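Bone marrow cells of aged mice were compared with those of young mice 24 h after an experimental stroke. Members of the comparison were the cells that the deposited count table labels as marrow after stroke and that held at least 500 UMIs (unique molecular identifiers, which stand for captured RNA molecules) with at most 10% of them from mitochondrial genes. This gave 2265 young and 2655 aged cells, 4920 of the 28055 cells deposited in the series. Both groups were wild-type mice whose middle cerebral artery had been occluded 24 h before, and the marrow of both had been enriched by sorting for Gr1+ (mostly neutrophils and monocytes) and for c-kit+ (mostly progenitors) fractions. Each group was 1 library of a droplet 3′ kit, and the ages, the sex, the strain and the number of mice behind a library are not given in the sources used here. No library of sham-operated mice was used. Young and aged marrow of untreated mice at steady state, also 1 library each, is set beside the results, and so is blood for mature neutrophils.

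Since each age is 1 library, no test was possible and no ratio below has a replicate behind it. Ratios are log2 of aged over young CPM (the UMIs of a gene per 1000000 UMIs of the cells summed). The 95% intervals in parentheses cover counting error only. Genes were compared where they had a mean of at least 20 CPM and at least 50 UMIs in both libraries together, and "past 2-fold" refers to the ratio alone. A gene can reach this minimum through the library where it is high. Counts of list members above or below 0 are given without the share of all compared genes on that side. They describe the members only.

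The kept cells held 30783449 UMIs in the young and 43653806 UMIs in the aged library, and the aged cells were deeper. The median cell had 7981 UMIs in the young and 11255 UMIs in the aged library, and 18.8% and 9.11% of the cells had under 1000 UMIs. The median mitochondrial share was 1.26% and 1.06%. Of the kept barcodes, 7 occurred in both libraries, and leaving them out moved no reported value past its interval. The Y-linked gene Ddx3y was at 27.4 CPM in the young and 26.98 CPM in the aged library, while Xist had 4 and 8 UMIs.

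Neutrophils and monocytes are made in the marrow from haematopoietic stem and multipotent progenitor cells, by way of granulocyte-monocyte progenitors. A neutrophil precursor first fills azurophil granules, then divides while it fills specific granules, and then leaves the cell cycle and matures before release into blood. In ageing, stem cells are known to accumulate and to contribute less to lymphocytes, and an acute injury such as a stroke draws on the marrow's store of neutrophils and monocytes.

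Cells were gated by marker genes, and each class is called "like" its cell type. The stem-like class was led by Ctla2a, Dntt, Adgrl4, Hlf and Cd34, the progenitor-like class by Elane, Mpo, Ctsg and Prtn3, and the dividing pre-neutrophil-like class by Camp, Fcnb, Ngp and Cebpe. Ltf, Ifitm6 and Ngp led the immature neutrophil-like class, Retnlg and Cxcr2 the mature one, and Fn1, Vcan and F13a1 the classical monocyte-like class. Of the 10 leading genes of these 6 classes, 4 to 6 were markers of the class itself, and none of the classes had more markers of another class there. Cells were assigned by these same markers, so this describes the gate and is no independent check of the class names. Of the 4920 cells, 268 lay within 0.1 of the score that admits a cell to a class.

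The aged library held a larger share of immature neutrophil-like and a smaller share of mature neutrophil-like cells. The share of immature neutrophil-like cells was 10.8% (9.57 to 12.2) in the young and 16.1% (14.7 to 17.6) in the aged library, and that of dividing pre-neutrophil-like cells 3.13% and 4.56%. Mature neutrophil-like cells made up 8.70% (7.57 to 9.93) and 5.61% (4.77 to 6.56). The 3 stages together came to 22.6% and 26.3%, so the libraries differed more in the make-up of the lineage than in its sum. At steady state the same markers and cuts gave 12.4% and 11.5% immature, and 3.04% and 3.88% mature neutrophil-like cells. Scores were scaled within each context's own cells, so a class is not cut at the same level in both. The deposited steady-state cells had at most 4.91% (young) and 4.99% (aged) mitochondrial UMIs, and 0.0487% and 0.0157% were under 1000 UMIs. Shares at steady state are therefore not like for like with those after stroke.

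Classical monocyte-like cells were fewer in the aged library, 10.3% (9.15 to 11.5) against 18.5% (16.9 to 20.2) of the young cells, with 13.9% and 15.0% at steady state. B lineage-like cells were at 1.32% (0.920 to 1.83) against 3.66% (2.93 to 4.52), and plasmacytoid dendritic-like cells, which make type I interferon, at 1.66% (1.21 to 2.22) against 3.89% (3.13 to 4.76). Progenitor-like cells were at 16.3% (15.0 to 17.8) against 12.9% (11.5 to 14.3). At steady state plasmacytoid dendritic-like cells were at 3.21% against 4.71%, B lineage-like cells at 1.21% against 1.03% and progenitor-like cells at 19.4% against 21.2%. Basophil and mast-like cells were at 2.98% against 1.55% after stroke and megakaryocyte-like cells at 1.36% against 0.353%. Both were the larger share in the aged library at steady state as well, at 2.79% against 1.95% and at 3.02% against 1.51%.

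Several of these directions depend on the depth of the cells. When every cell was reduced to 1000 UMIs before gating, which left 1840 young and 2413 aged cells, immature neutrophil-like cells (15.2% and 20.7%), mature neutrophil-like cells (9.73% and 4.64%), monocyte-like cells (17.99% and 9.28%), B lineage-like cells (3.26% and 1.04%) and progenitor-like cells (10.98% and 15.7%) kept their direction. The stem-like class did not: on all UMIs its share was 6.58% (5.59 to 7.68) in the young and 10.1% (8.94 to 11.3) in the aged library, and on 1000 UMIs 2.88% and 1.57%. Megakaryocyte-like cells came to 1 cell in each library on 1000 UMIs. NK-like cells went from 3.31% and 4.97% to 3.098% and 2.98%, and erythroid-like cells from 3.40% and 4.11% to 0.978% and 0.870%. No direction is read for the stem-like, megakaryocyte-like, NK-like and erythroid-like shares. The sort for Gr1+ and c-kit+ fractions also bears on each share.

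**Figure D1:**
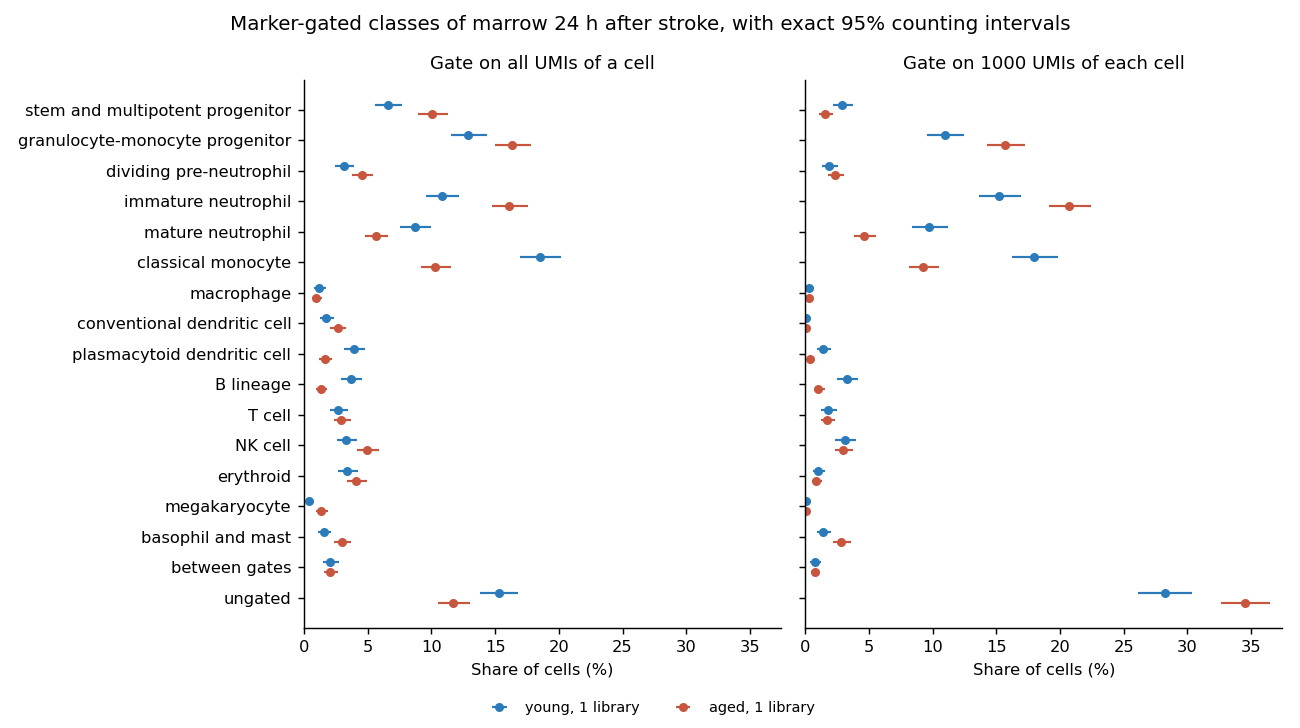
Share of cells (%) in each marker-gated class of young and aged marrow after stroke, gated on all UMIs (left) and on 1000 UMIs of each cell (right), where points are single libraries and bars exact 95% counting intervals. Mature neutrophil-like and monocyte-like points of the aged library lie to the left of the young ones in both panels, while the stem-like points change order between the panels.

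Stem and multipotent progenitor-like cells (149 young and 267 aged) of the aged library had higher levels of genes tied to stem cell ageing and lower levels of lymphoid priming genes. Of 5573 genes compared, 46 were past 2-fold higher (0.825%) and 57 past 2-fold lower (1.02%), together 1.85%. The median ratio over all compared genes was -0.01. Median depth was close in this class, 13965 UMIs in the young and 12862 UMIs in the aged library.

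The 20 genes on the stem cell ageing list summed to 73.7 CPM in the young and 533 CPM in the aged library, and with no minimum level 20 were at a higher CPM in the aged library and 0 at a lower one. Of the list 5 reached the minimum level, each through the aged library, since each lay under 20 CPM in the young one, so their number past 2-fold supports nothing and their values are a description. Nupr1, a stress-induced chromatin protein (chr7:126623249-126630861, GRCm38), was at 2.90 CPM in the young and 86.3 CPM in the aged library, from 7 and 375 UMIs (log2 4.90, 3.84 to 6.22). Sult1a1, a sulfotransferase, was at 12 and 114 CPM (3.24, 2.70 to 3.84). Selp, the adhesion receptor P-selectin, was at 8.69 and 49.2 CPM (2.5, 1.85 to 3.22). Gda, guanine deaminase, was at 8.28 and 58.4 CPM (2.82, 2.16 to 3.56), and Mllt3, a chromatin reader that maintains stem cells, at 15.3 and 46.9 CPM (1.62, 1.11 to 2.16). These 5 genes were also past 2-fold higher in the aged steady-state library, where Nupr1 stood at 4.20, Sult1a1 at 4.20 and Selp at 2.60. The list was chosen with earlier results of these data known.

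Outside the list, Tgm2, which crosslinks proteins, was at 1.66 and 40.5 CPM (4.61, 3.23 to 6.50), from 4 UMIs in the young library. Trim47, of the TRIM ubiquitin ligase family, was at 10.8 and 84.2 CPM (2.97, 2.39 to 3.60). Socs3, a feedback inhibitor of cytokine receptors, was at 16.1 and 52.7 CPM (1.71, 1.21 to 2.24), and Slfn2, a Schlafen protein that keeps immune cells quiescent, at 7.86 and 32.9 CPM (2.06). The last pair had ratios of 1.54 and 0.68 at steady state. With cells reduced to 1000 UMIs that of Socs3 after stroke was 0.88.

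Lymphoid priming genes were lower in the aged stem-like cells. Besides Flt3, which is one of the gate's own genes (264 and 122 CPM), 8 members of the list reached the minimum level and 6 of these were past 2-fold lower. The 12 listed genes, Flt3 included, summed to 1576 and 762 CPM, and with no minimum level 11 of them were at a lower CPM in the aged library. Dntt, the terminal transferase that diversifies antigen receptors, was at 669 CPM in the young and 306 CPM in the aged library (-1.13, -1.24 to -1.02). Il7r, the interleukin-7 receptor, was at 51.7 and 13.6 CPM (-1.93, -2.40 to -1.47). Satb1, a chromatin organiser of lymphoid progenitors, was at 164 and 64.2 CPM (-1.35, -1.58 to -1.13). Notch1 was at 62.1 and 24.8 CPM (-1.32), Lax1, a signalling adaptor of lymphocytes, at 29.4 and 11.7 CPM (-1.32), and Il12a, an interleukin-12 subunit, at 137 and 63.7 CPM (-1.10). At steady state these genes were lower in the aged library too, by less for Dntt (-0.76), Il7r (-1.06), Satb1 (-0.71) and Notch1 (-0.48).

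Other genes past 2-fold lower in this class had roles outside the lymphoid list. The transcription factor gene Irf8 was at 149 CPM in the young and 48.1 CPM in the aged library (-1.63, -1.88 to -1.38), against -1.0 at steady state. Mpeg1, a pore-forming protein of phagocytes, was at 45.1 and 12.9 CPM (-1.81), and Ncf1, a subunit of the NADPH oxidase, at 76.6 and 36.4 CPM (-1.07). The interferon-induced gene Ifi27l2a was at 65.4 and 20.5 CPM (-1.67), the chemokine Ccl3 at 34.8 and 9.66 CPM (-1.85, and -0.88 with cells reduced to 1000 UMIs), and Ighm, transcribed in lymphoid progenitors before rearrangement is complete, at 212 and 76.8 CPM (-1.46). Of 10 interferon-stimulated genes compared, Ifi27l2a was the member past 2-fold, and the list's median was -0.01.

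Markers of other classes moved with these genes: the plasmacytoid dendritic markers summed to 156 CPM in the young and 86.0 CPM in the aged stem-like cells (1 of 7 markers at 0 in each), the monocyte markers to 89.0 and 58.2 CPM (0 of 7 at 0), the B lineage markers to 48.0 and 34.7 CPM (5 of 9 at 0 in each), and the megakaryocyte markers to 47.2 and 96.4 CPM (2 of 7 at 0 in each). Their part in the differences was not tested. Of the genes compared in both contexts, 39 were past 2-fold higher after stroke, of which 15 (38.5%) were also past 2-fold higher at steady state. Those 15 were 71.4% of the 21 genes past 2-fold higher at steady state. In the other direction the overlap was 4 genes, 8.51% of the 47 after stroke and 80.0% of the 5 at steady state, namely Banp, Il12a, Il7r and Irf8. Whether the 2 contexts differ was not tested.

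**Figure D2:**
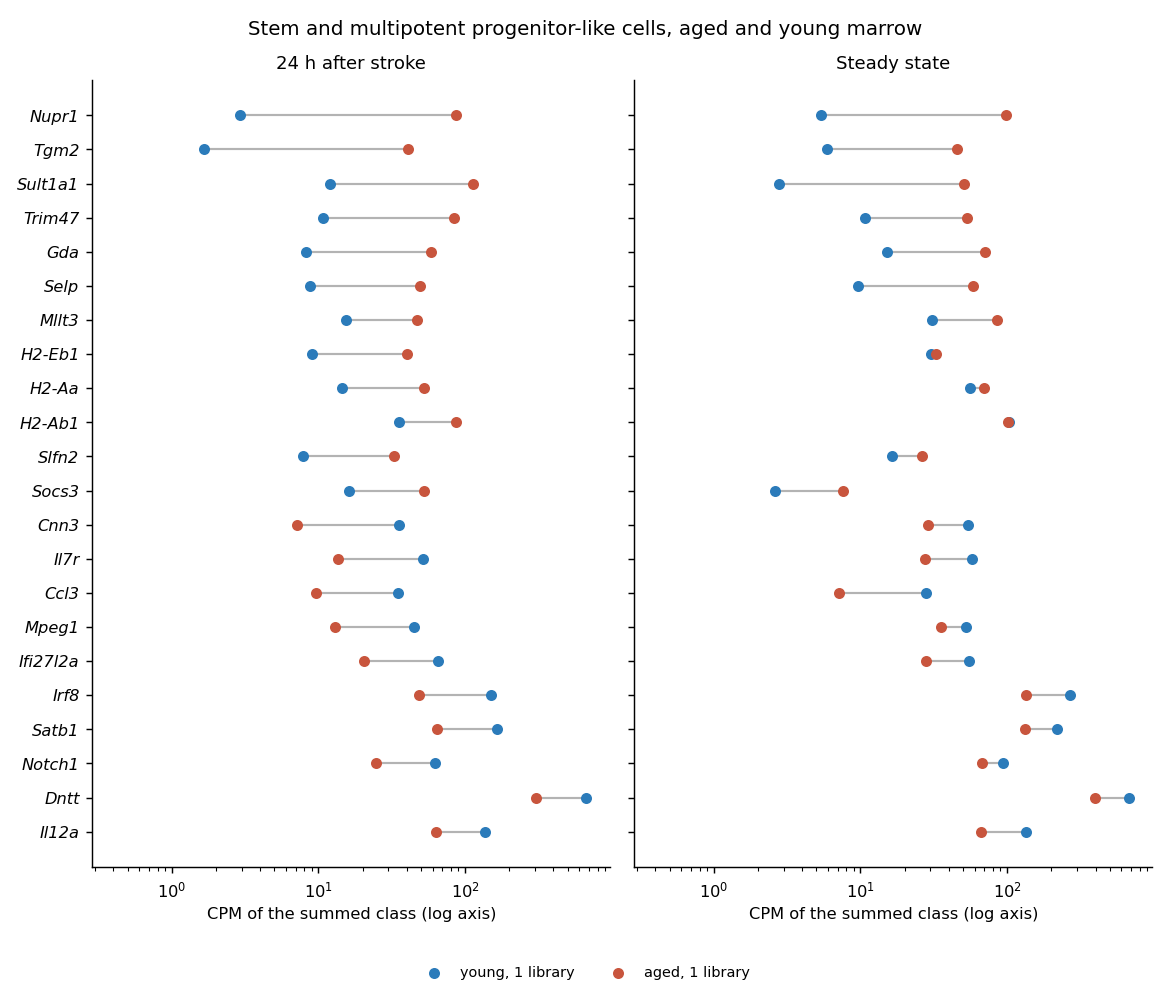
Summed CPM (log axis) of genes in stem and multipotent progenitor-like cells of young and aged marrow, after stroke (left) and at steady state (right), 1 library a point. Nupr1, Sult1a1 and Selp lie far to the right in the aged library in both panels, while H2-Eb1 is at 9.10 and 40.03 CPM after stroke and nearly level at steady state.

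Granulocyte-monocyte progenitor-like cells (292 young and 434 aged) of the aged library had lower levels of Chil3, Lyz2, Lgals3 and S100 genes and a higher level of the kinase gene Pim1. Of 4921 genes compared, 15 were past 2-fold higher (0.305%) and 13 lower (0.264%), together 0.569%. Depth differed widely in this class, with a median of 1280 UMIs in the young and 16952 UMIs in the aged library, and 63.7% and 37.1% of the cells under 2000 UMIs. With every cell weighted the same, which lets the shallow cells count fully, 153 genes were past 2-fold higher and 80 lower.

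Pim1, a survival kinase that cytokine receptors induce, was at 64.8 CPM in the young and 168 CPM in the aged library (1.38, 1.2 to 1.55), and at -0.13 at steady state. With cells reduced to 1000 UMIs its ratio was 0.68 and with equal weight for cells 0.86, both short of 2-fold. S100a10, S100a6 and Lgals3, of the S100 and galectin families, were the members past 2-fold lower among 12 stefins and secreted alarmins. S100a10 was at 370 and 157 CPM (-1.24, -1.33 to -1.14), S100a6 at 374 and 170 CPM (-1.13) and Lgals3 at 367 and 160 CPM (-1.19), and their steady-state ratios lay between -0.05 and 0.03. Irf5, a transcription factor of inflammatory macrophages, was at 35.1 and 14.9 CPM (-1.24), and Capg, an actin-capping protein, at 43.1 and 19.3 CPM (-1.16). Chil3, a chitinase-like lectin, was at 1597 and 642 CPM (-1.31) and lysozyme, Lyz2, at 619 and 253 CPM (-1.29).

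UMIs of these genes were concentrated: 10 cells held 61.5% of the young library's Chil3 and 59.8% of its Lgals3, and without the 10 highest cells of each library the ratios were -0.91 and -0.84. That of Lyz2 was then -0.71, and with cells reduced to 1000 UMIs that of Chil3 was -0.73. The monocyte markers summed to 1622 CPM in the young and 1089 CPM in the aged progenitor-like cells, and the immature neutrophil markers to 6452 and 5118 CPM, with no marker at 0. Their part in the lower levels was not tested. The 9 specific granule genes compared were below 0 (median -0.37), as were the 7 subunits of the NADPH oxidase (median -0.25), and Chil3 was the member past 2-fold. Cpa3, the mast cell carboxypeptidase, was at 8.93 and 37.5 CPM (2.07), where the basophil and mast markers summed to 62.7 and 103 CPM with 1 of 7 at 0 in each. Igkc was at 9.35 and 84.5 CPM (3.18), with 84.8% of the aged UMIs in 10 cells.

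In the neutrophil lineage, Olfm4 was higher in the aged library at each of the 3 stages and Thbs1 in immature and mature cells, while lysozyme was lower. Olfm4, the specific granule protein olfactomedin-4 that marks a subset of neutrophils (chr14:79984081-80023139), was at 29.3 CPM in the young and 274 CPM in the aged dividing cells (3.23, 2.84 to 3.64). It was at 121 and 536 CPM in immature cells (2.15, 1.99 to 2.30) and at 72.7 and 330 CPM in mature cells (2.18, 1.85 to 2.53). Few cells carried it: in the immature class 10 of them held 100% of the UMIs in the young library and 33.1% in the aged one. At steady state the ratios were -0.14, -0.15 and -0.58, so the aged library was not the higher one there, and the levels of 370 and 333 CPM in immature cells stood between the levels after stroke. NK-like cells, which should lack Olfm4, had 0 UMIs in both libraries and T-like cells 0 and 1.

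Thbs1, thrombospondin 1, a matrix protein that binds platelets and activates TGF-beta (chr2:118111876-118127133), was at 1.57, 20.6 and 17.0 CPM in the dividing, immature and mature cells of the young library, and at 14.6, 86.2 and 216 CPM in those of the aged library. The ratios were 3.21 (1.59 to 5.54), 2.06 (1.69 to 2.46) and 3.67 (3.03 to 4.39), against -0.86, -0.30 and -0.98 at steady state. The dividing stage rests on 3 and 51 UMIs and lies under the minimum level for a comparison. In mature cells 10 cells held 39.0% of the aged UMIs. In blood, mature neutrophil-like cells (702 young and 1214 aged) had 27.2 and 33.2 CPM (0.29, -0.10 to 0.68).

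Lyz2 was at 4567 and 2675 CPM in dividing cells (-0.77), 7917 and 5300 CPM in immature cells (-0.58) and 3689 and 2366 CPM in mature cells (-0.64), short of 2-fold, with steady-state ratios of -0.09, 0.08 and 0.13. Chil3 was lower by less, at -0.45, -0.35 and -0.28. The alarmins S100a8 and S100a9, the most abundant transcripts of these cells, differed little: their ratios lay between -0.05 and 0.15 at the 3 stages. Pim1 was past 2-fold higher in dividing cells (54.9 and 122 CPM, 1.15) and in immature cells (40.3 and 105 CPM, 1.38), and at 207 and 248 CPM in mature cells (0.26).

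**Figure D3:**
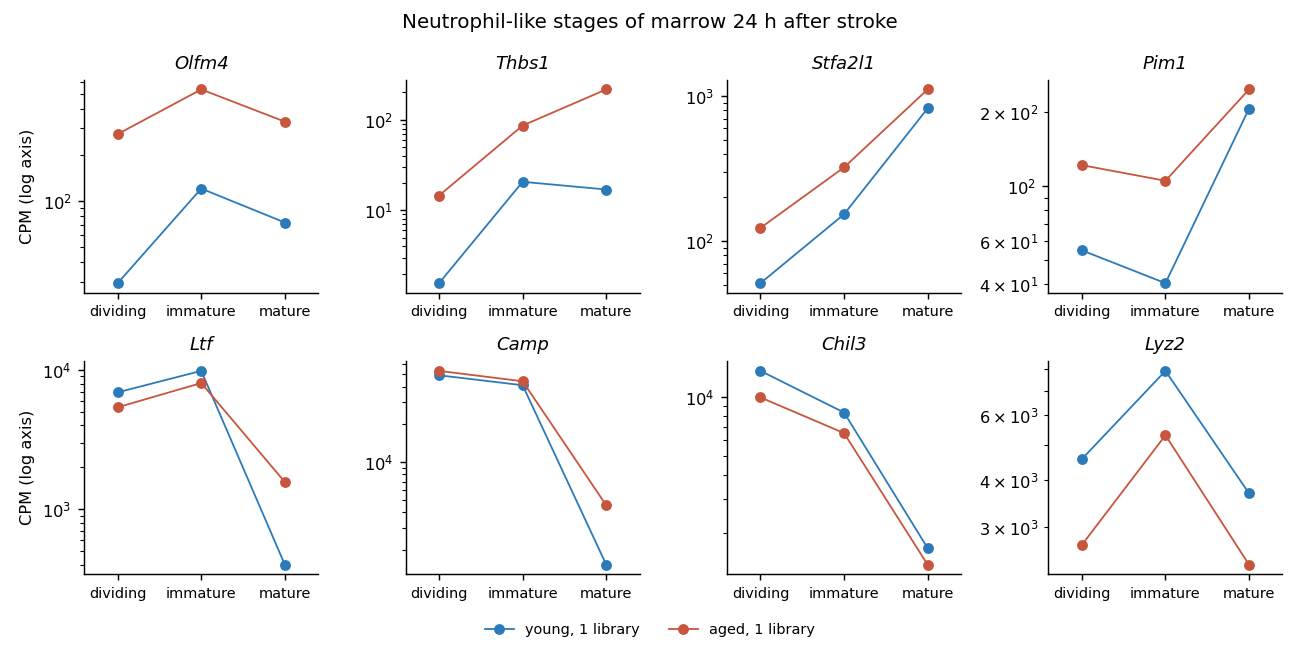
CPM (log axis) of 8 genes in dividing pre-neutrophil-like, immature and mature neutrophil-like cells of young and aged marrow after stroke, 1 library a point. The aged line lies above the young one at each stage for Olfm4 and Thbs1 and below it for Lyz2 and Chil3, while for Ltf it lies below at the first stages and above in mature cells, at 401 and 1571 CPM.

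Dividing pre-neutrophil-like cells (71 young and 121 aged) had 15 of 3875 compared genes past 2-fold higher and 15 lower (0.387% each, together 0.774%). With scaling by the trimmed mean of M values (TMM) the counts were 22 and 11, and with cells weighted the same 34 and 129. Stfa1 and Stfa2l1, stefins that inhibit cathepsins, were at 78.9 and 224 CPM (1.51) and at 51.2 and 123 CPM (1.27), and Il1r2, the decoy receptor of interleukin-1, was at 70.6 and 149 CPM (1.08). With cells reduced to 1000 UMIs the ratio of Il1r2 was 0.15, and with equal weight for cells that of Stfa2l1 was 0.94. Stfa1 had the other direction at steady state, 38.0 and 15.4 CPM (-1.30). Mpo and Ctsg, of the azurophil granule, were at 12.5 and 30.3 CPM (1.27) and at 12.5 and 33.1 CPM (1.40), the latter 0.82 with cells reduced to 1000 UMIs. Mt1, a metallothionein, was at 52.3 and 13.4 CPM (-1.96), with 92.0% of the young UMIs in 10 cells and -0.24 without the 10 highest cells. Of 35 cytosolic ribosomal protein genes, 33 were above 0, with a median of 0.13 against -0.04 over all genes.

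Immature neutrophil-like cells (245 young and 428 aged) had 26 of 3402 compared genes past 2-fold higher (0.764%) and 1 lower (0.0294%), together 0.794%. With cells weighted the same the split was 36 and 32. Ldhc, a lactate dehydrogenase subunit best known from testis, was at 16.6 CPM in the young and 79.9 CPM in the aged library (2.27, 1.86 to 2.71), and Trim37, a ubiquitin ligase, at 10.0 and 33.7 CPM (1.75, 1.21 to 2.34). Stfa2l1 was at 153 and 323 CPM (1.07) and Stfa2 at 11.6 and 52.0 CPM (2.17). The gene lower was Msmo1, an enzyme of cholesterol synthesis, at 37.8 and 17.7 CPM (-1.10, -1.49 to -0.71), and -0.75 with equal weight for cells.

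Some ratios in the immature class depended on how cells were weighed. Elane and Prtn3, neutrophil elastase and proteinase 3 of the azurophil granule, were at 34.4 and 77.2 CPM (1.17) and at 64.7 and 134 CPM (1.05). Rrm2, which makes deoxynucleotides for replication, was at 10.6 and 31.5 CPM (1.57), and the histone gene Hist1h1b at 24.1 and 76.0 CPM (1.66), with 84.8% of the aged UMIs in 10 cells. With cells reduced to 1000 UMIs the ratio of Elane was -0.24, and with equal weight for cells that of Prtn3 was -0.06, so no direction is read for this pair. With equal weight the ratios of Rrm2 and Hist1h1b were 0.16 and 0.10, and the cell cycle genes Birc5 and Hist1h2ae stood at -0.38 and -0.08, so none is read for these either. The markers of progenitors summed to 193 and 374 CPM in this class, with 0 of 6 at 0, and their part in the result was not tested. All 35 cytosolic ribosomal protein genes lay above 0, between 0.10 and 0.70 with a median of 0.43 against 0.01 over all genes, and none was past 2-fold. Of the unfolded protein response genes 8 of 10 lay above 0 (median 0.37), and of nuclear genes of oxidative phosphorylation 27 of 30 (median 0.12).

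Mature neutrophil-like cells (197 young and 149 aged) had 66 of 3629 compared genes past 2-fold higher (1.82%) and 65 lower (1.79%), together 3.61%. Scaling by the median ratio made the split 77 and 48, and equal weight for cells 60 and 127. Ltf, lactoferrin of the specific granule, was at 401 CPM in the young and 1571 CPM in the aged library (1.97, 1.83 to 2.12), and Camp, cathelicidin, at 1526 and 4533 CPM (1.57, 1.49 to 1.65). Both are markers of the immature class, whose 7 markers summed to 24039 and 33876 CPM here. The 10 highest cells held 70.5% of the aged Ltf and 71.2% of the aged Camp UMIs, and without them the ratios were 1.48 and 0.78. Of 35 ribosomal protein genes 33 lay above 0 (median 0.44 against -0.07 over all genes), and the 7 mitochondrially encoded genes compared lay above 0 too (median 0.67). The mitochondrial share of the median cell had the other direction, at 0.855% in the young and 0.749% in the aged mature cells. No direction is therefore read for the mitochondrially encoded genes.

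Genes lower in the aged mature cells included inhibitors and enzymes of signalling, and 10 cells held 17.97% to 41.5% of the young UMIs of those that follow. Pik3ip1, an inhibitor of PI3 kinase, was at 50.1 CPM in the young and 7.91 CPM in the aged library (-2.66, -3.86 to -1.65), from 62 and 9 UMIs. Scnn1a, a sodium channel subunit, was at 42.8 and 7.03 CPM (-2.61), and Pla2g7, the enzyme that degrades platelet-activating factor, at 445 and 209 CPM (-1.09, -1.32 to -0.87). Dusp6, a phosphatase of ERK kinases, was at 120 and 50.1 CPM (-1.26), and Fgl2, a fibrinogen-like protein, at 194 and 87.8 CPM (-1.14). Itga4, the alpha 4 integrin that binds VCAM-1, was at 111 and 55.3 CPM (-1.0). With equal weight for cells that of Fgl2 was -0.87.

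Glucocorticoid-responsive genes lay below 0 in 7 of 8 cases (median -0.43), where the median over all genes of this class was itself below 0. Fkbp5, the chaperone that glucocorticoids induce, was at 118 CPM in the young and 51.8 CPM in the aged mature cells (-1.19, -1.65 to -0.74), with 0.10 at steady state and -0.88 with equal weight for cells, and Klf9, another of their targets, at 38.0 and 15.8 CPM (-1.26). Of 14 interferon-stimulated genes 10 lay below 0 (median -0.24), and Oasl2 was past 2-fold lower, at 37.2 and 18.4 CPM (-1.01, and -0.38 with equal weight for cells). In blood, Oasl2 was the 1 gene of the 12 lower named genes with enough UMIs that was past 2-fold lower, at 318 and 123 CPM (-1.37), while Fkbp5 was at 21.5 and 40.9 CPM (0.93). None of the 6 higher named genes compared in blood was past 2-fold there. Of 4291 genes compared in those blood cells 0.559% were past 2-fold higher and 0.886% lower, together 1.44%, which is the background for these counts.

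Classical monocyte-like cells (419 young and 273 aged) of the aged library had higher levels of MHC class II genes, Socs3, Pim1 and Ifitm1, and lower levels of Lpl, Cx3cr1, Chil3 and Lst1. Of 5195 genes compared, 25 were past 2-fold higher (0.481%) and 14 lower (0.269%), together 0.751%. Median depth was 18036 and 20803 UMIs.

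Socs3 was at 16.8 CPM in the young and 51.7 CPM in the aged library (1.62, 1.34 to 1.91), and at about 1 CPM in both at steady state (1.06 and 1.37). Pim1, like Socs3 a gene that STAT3 is known to induce, was at 85.2 and 207 CPM (1.28, 1.15 to 1.41), with -0.04 at steady state and 0.80 with cells reduced to 1000 UMIs. Ifitm1, a membrane protein that restricts viruses, was at 462 and 1074 CPM (1.22, 1.16 to 1.27). Cd38, an NAD-consuming ectoenzyme, was at 14.4 and 52.5 CPM (1.87, 1.57 to 2.17), and Slc7a5, an importer of large amino acids, at 16.6 and 45.3 CPM (1.45, 1.16 to 1.74). Spp1, osteopontin, was at 29.2 and 73.7 CPM (1.33, and 0.66 with cells reduced to 1000 UMIs). These genes were not concentrated to the same degree, with 17.0% to 49.2% of the aged UMIs of each in 10 cells.

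Lpl, lipoprotein lipase, was at 41.9 CPM in the young and 11.4 CPM in the aged library (-1.88, -2.26 to -1.51), and 0.50 at steady state. Cx3cr1, the fractalkine receptor that rises as monocytes turn non-classical, was at 38.2 and 11.4 CPM (-1.74, -2.13 to -1.38), with -0.06 at steady state. Ms4a8a, of the MS4A membrane family, was at 99.6 and 39.7 CPM (-1.33), and Rnase6, an antimicrobial ribonuclease, at 101 and 44.4 CPM (-1.19, and -0.60 with cells reduced to 1000 UMIs). Chil3 was at 5090 and 2302 CPM (-1.14, -1.17 to -1.12), and at 440 and 761 CPM (0.79) at steady state. Lst1, a leukocyte transcript of the MHC region, was at 322 and 156 CPM (-1.05), and Lyz2 at 11724 and 6007 CPM (-0.96). Fos, an immediate early transcription factor, was at 94.1 and 44.2 CPM (-1.09), and Btg2 at 62.3 and 30.2 CPM. Fos was also past 2-fold lower at steady state (-1.17). With cells reduced to 1000 UMIs Fos, Btg2, Lst1 and Ifi27l2a lay between -0.99 and -0.89.

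Gene lists differed by less than 2-fold at their medians in this class, MHC class II apart. Of 13 stefins and secreted alarmins 11 lay below 0 (median -0.20), and the 7 interferon-stimulated genes compared lay below 0 (median -0.21), Ifi27l2a past 2-fold at 257 and 119 CPM (-1.11). Of 15 S phase genes 14 lay above 0 (median 0.28), with none past 2-fold. Ltf, Ngp and Camp, granule genes of neutrophils, were at 13.4 and 33.0 CPM (1.30), 61.9 and 135 CPM (1.13), and 52.5 and 107 CPM (1.03). T-like cells, which should lack Camp, held 87.4 and 95.4 CPM of it and NK-like cells 101 and 106 CPM, so no difference is read for Camp in monocyte-like cells. Without the 10 highest cells of each library the ratios of Ltf and Ngp were 0.39 and 0.20.

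**Figure D4:**
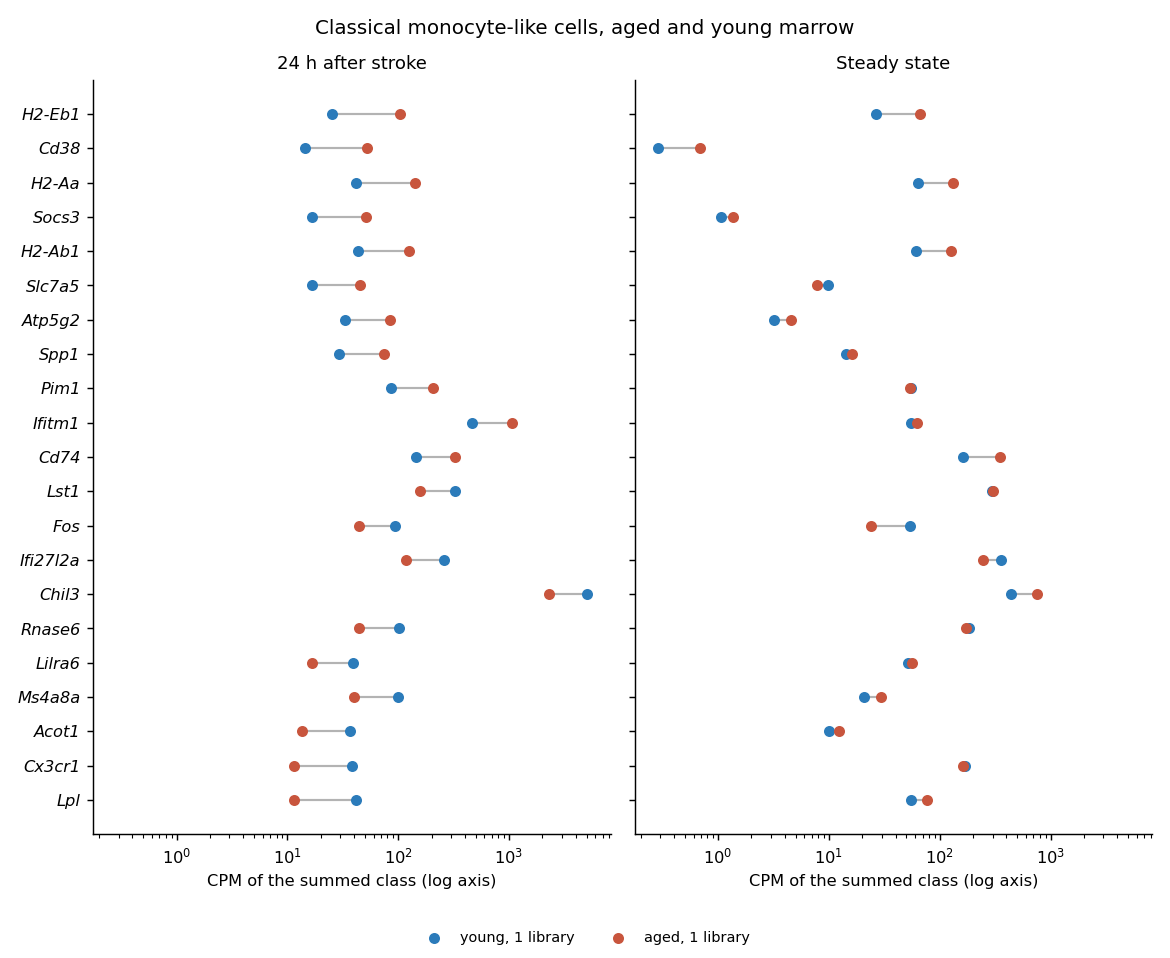
Summed CPM (log axis) of genes in classical monocyte-like cells of young and aged marrow, after stroke (left) and at steady state (right), 1 library a point. Pim1, at 85.2 and 207 CPM after stroke, and Chil3, at 5090 and 2302 CPM after stroke, do not keep these gaps at steady state, where Chil3 has the opposite order.

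MHC class II genes, which present peptides from outside the cell to CD4+ T cells, were past 2-fold in several classes, in both directions. In stem-like cells the 7 listed genes summed to 331 CPM in the young and 452 CPM in the aged library, and with no minimum level 6 of the 7 were at a higher CPM in the aged one. H2-Eb1 and H2-Aa reached the minimum level through the aged library. There H2-Eb1 was at 9.10 and 40.03 CPM (2.14, 1.49 to 2.85), H2-Aa at 14.5 and 52.5 CPM (1.86, 1.34 to 2.41), H2-Ab1 at 35.6 and 86.7 CPM (1.29, 0.94 to 1.64) and Cd74, the invariant chain, at 43.9 and 96.6 CPM (1.14, and 0.86 with cells reduced to 1000 UMIs). At steady state these ratios lay between -0.08 and 0.32. The conventional dendritic markers summed to only 8.69 and 7.13 CPM in this class, with 3 and 4 of 8 at 0. Their part in the class II levels was not tested.

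In monocyte-like cells the same 4 genes were past 2-fold higher, H2-Eb1 at 25.4 and 104 CPM (2.03, 1.81 to 2.25), H2-Aa at 41.4 and 140 CPM (1.76), H2-Ab1 at 43.5 and 125 CPM (1.52) and Cd74 at 144 and 324 CPM (1.17). Here steady state gave ratios of 1.05 to 1.30. UMIs were concentrated, with 92.7% of the young and 80.6% of the aged H2-Eb1 in 10 cells. Without the 10 highest cells of each library the ratio was 3.44, with few young UMIs left. Whether cells of other types carried these reads was not tested. The dendritic markers summed to 27.6 and 26.2 CPM (1 of 8 at 0 in each).

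In the neutrophil stages the class II reads came from a handful of cells. In mature cells Cd74 was at 66.3 and 510 CPM (2.95) and H2-Aa at 19.4 and 227 CPM (3.55), with 99.7% to 100% of the aged UMIs of both in 10 cells, and the B lineage markers summed to 0.808 and 25.5 CPM (8 and 3 of 9 at 0). In immature cells Cd74 was at 6.57 and 96.6 CPM (3.88), with 94.01% of the aged UMIs in 10 cells. In dividing cells Cd74 was lower, at 171 and 51.1 CPM (-1.75), with 100% of the young UMIs in 10 cells, and without the 10 highest cells of each library the ratio was 0.80. In T-like cells H2-Ab1 was at 388 and 4.54 CPM and Cd74 at 924 and 20.4 CPM (-5.50), again with 100% of the young UMIs in 10 cells. B lineage markers summed to 24.7 and 4.54 CPM in those T-like cells, with 8 of 9 at 0 in each library. Doublets and free RNA were not tested as sources of these reads, and no direction is read for the neutrophil and T-like classes.

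Class II promoters carry a conserved set of boxes, of which the Y box binds the factor NF-Y. Since H2-Aa and H2-Eb1 were higher together in the stem-like and monocyte-like cells, the 250 bases before each gene's start are shown (RefSeq, GRCm38.p6), in lower case with the Y box letters CTGATTGG in capitals. The H2-Aa window lies at chr17:34287824-34288073 on the minus strand and the H2-Eb1 window at chr17:34305617-34305866 on the plus strand.
H2-Aa: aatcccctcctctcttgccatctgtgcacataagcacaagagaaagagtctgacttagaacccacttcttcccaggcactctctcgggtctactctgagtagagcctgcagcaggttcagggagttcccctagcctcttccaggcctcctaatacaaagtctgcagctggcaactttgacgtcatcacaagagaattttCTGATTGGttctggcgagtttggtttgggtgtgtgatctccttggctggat
H2-Eb1: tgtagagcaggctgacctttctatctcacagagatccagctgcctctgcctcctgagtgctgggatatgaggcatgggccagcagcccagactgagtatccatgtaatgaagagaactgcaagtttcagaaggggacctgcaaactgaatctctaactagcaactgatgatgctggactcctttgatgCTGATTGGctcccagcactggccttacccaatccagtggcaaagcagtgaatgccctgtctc
The capitals begin 51 bases before the start of H2-Aa and 62 bases before that of H2-Eb1. The letters were chosen after the sequences had been seen. Searched on both strands (reverse CCAATCAG), they occur in 1346 of the 32851 promoters of the table (4.10%, windows of 250 bases before and 50 bases after the start), and not in full in the windows of H2-DMa and H2-DMb1. The H2-DMb1 window holds all of the letters but the first C (tgattgg). No promoter of H2-Ab1 was among those searched. A match describes the letters only.

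**Figure D5:**
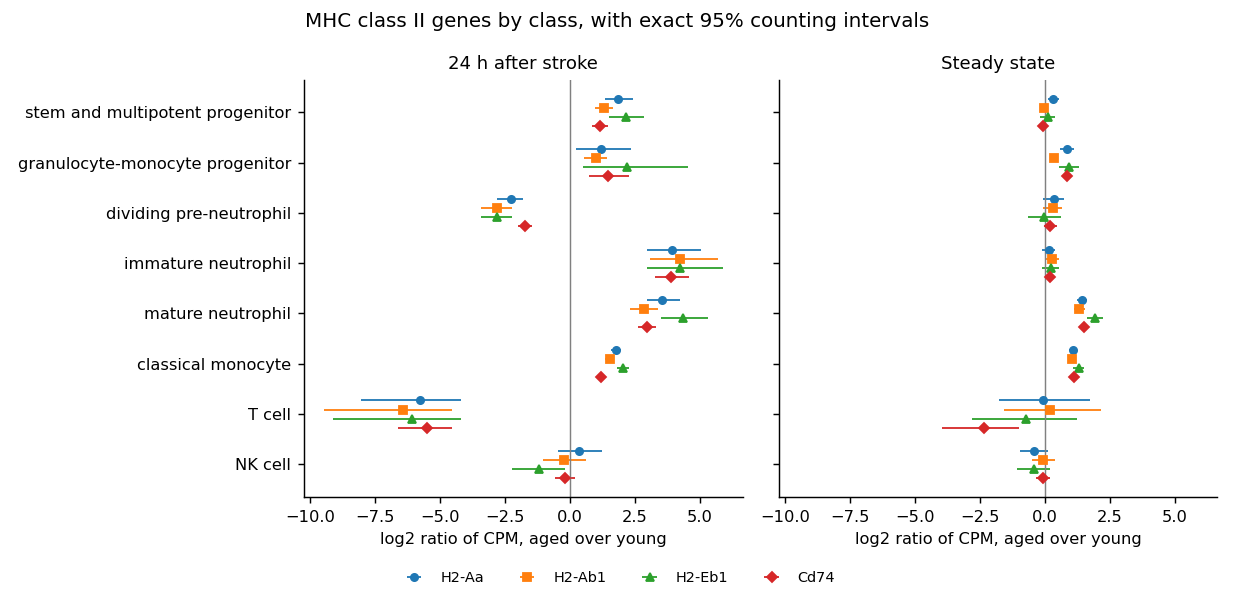
Log2 ratio of CPM, aged over young, for 4 MHC class II genes in 8 classes after stroke (left) and at steady state (right), with exact 95% counting intervals. Points of the stem-like and monocyte-like classes lie right of 0 after stroke, those of dividing and T-like cells left of it, and stem-like points sit near 0 at steady state.

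Some genes were past 2-fold in several classes. Pim1 was higher in 4 of the 9 classes compared (progenitor-like, dividing, immature and monocyte-like), and the mitochondrial ATP synthase gene Atp5g2 in 5 of the 6 classes where it had enough UMIs. Atp5g2 was at 29.98 and 76.5 CPM over all cells (1.35, 1.25 to 1.46), and at 3.46 and 3.94 CPM at steady state. Of the distinct 31-base words in the last 500 bases of its transcripts 49.6% occur in other genes, so its counts are uncertain. The same holds at over 10% for the globins Hba-a1 (94.8%) and Hbb-bs (57.3%), S100a4 (49.2%), Rrm2 (16.8%), Ifitm1 (26.6%), Lyz2 (36.2%), Chil3 (24.5%), Trim47 (11.1%), Spp1 (11.3%) and the stefins Stfa1 (45.9%), Stfa2l1 (41.6%) and Stfa2 (33.3%), whose reads the counting may have divided among near-identical copies.

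Erythroid-like cells (77 young and 109 aged) had 10 of 4893 compared genes past 2-fold higher (0.204%) and 21 lower (0.429%), together 0.634%, and 12 higher and 12 lower with either TMM or median-ratio scaling. With cells weighted the same the split was 89 and 114. The 4 haemoglobin genes were lower, summing to 3276 CPM in the young and 385 CPM in the aged library. Hbb-bs, a beta globin, was at 1123 and 61.1 CPM (-4.20) and Hba-a1, an alpha globin, at 1237 and 201 CPM (-2.62), with 99.5% and 97.3% of the young UMIs in 10 cells. Without the 10 highest cells of each library the ratios were -0.92 and -1.71, and at steady state -2.63 and -2.93. All 16 S phase genes lay below 0 (median -0.28 against -0.08 over all genes), Rrm2 past 2-fold at 154 and 74.7 CPM (-1.05). With equal weight for cells its ratio was -0.28 and with cells reduced to 1000 UMIs -0.05. Ifitm1 was at 700 and 1778 CPM (1.34, 1.26 to 1.43).

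NK-like cells (75 young and 132 aged) had 37 of 2470 compared genes past 2-fold higher (1.5%) and 41 lower (1.66%), together 3.16%, and 42 and 27 with TMM. Median-ratio scaling gave 41 and 29. Il7r, the receptor of T cells and innate lymphoid cells, was at 194 CPM in the young and 825 CPM in the aged library (2.09, 1.72 to 2.48), and the T cell receptor chains Cd3g and Cd3d at 22.4 and 237 CPM (3.40) and at 33.7 and 192 CPM (2.52). Gzmb, granzyme B, was at 104 and 23.4 CPM (-2.15), Eomes, a transcription factor of NK cells, at 356 and 160 CPM (-1.15, -1.56 to -0.75), and Lgals1, galectin-1, at 623 and 133 CPM (-2.23, -2.63 to -1.84), while the receptor Klrb1b was at 81.3 and 234 CPM (1.52). Without the 10 highest cells of each library the ratio of Eomes was -0.85. The T cell markers summed to 595 and 969 CPM in the class (2 and 1 of 7 at 0), and their part in these ratios was not tested.

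T-like cells (61 young and 78 aged) had 35 of 1998 compared genes past 2-fold higher (1.75%) and 26 lower (1.3%), together 3.05%. The chemokine Ccl4 was at 17.9 and 1087 CPM (5.92), with 99.2% of the aged UMIs in 10 cells, and without the 10 highest cells of each library its ratio was 0.27. S100a8 and S100a9 were at 415 and 1103 CPM (1.41) and at 473 and 1094 CPM (1.21), where the mature neutrophil markers summed to 89.7 and 545 CPM (1 of 7 at 0 in each), and without the 10 highest cells of each library the ratios were 0.20 and 0.43. Dapl1, a transcript of naive CD8+ T cells, had 65 UMIs (146 CPM) in the young and 0 in the aged library. With a floor of 3 counts for the aged class its log2 ratio was -4.42, and the interval reached up to -4.08. All of the young UMIs lay in 9 cells. At steady state Dapl1 was at 172 and 0 CPM. T-like cells held S100a9 at 32536 and 35378 CPM there, so the contexts are not like for like in this class.

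Summed over all cells, the libraries differed by 20 genes past 2-fold higher (0.383%) and 38 lower (0.727%) of 5228 compared, together 1.11%. In such sums fewer cells of a type and less RNA per cell cannot be told apart. The monocyte genes Fn1, fibronectin (448 and 161 CPM, -1.48), S100a4 (165 and 62.4 CPM, -1.41) and Lyz2 (5120 and 2093 CPM, -1.29) were lower, beside the smaller monocyte-like share, and at steady state their ratios were 0.39, 0.05 and 0.03. Ly6d, a surface protein of lymphoid and plasmacytoid progenitors, was at 176 and 43.2 CPM (-2.03, -2.10 to -1.95), and Dntt at 89.3 and 41.3 CPM (-1.11). Basophil genes were higher: Prss34 and Mcpt8, proteases of basophils, were at 186 and 661 CPM (1.83) and at 117 and 414 CPM (1.82). Of the Prss34 UMIs 10 cells held 90.3% in the young and 36.0% in the aged library.

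Single cells could carry a gene in the sum. Igha, of plasma cells making immunoglobulin A, was at 88.3 CPM in the young and 2.59 CPM in the aged library (-5.09), and 97.1% of the young UMIs lay in 10 cells, without which the ratio was -0.29. Ighg2b had 0 UMIs in the young and 4164 in the aged library (95.4 CPM, log2 ratio 9.93 with a floor of 3 counts for the young library), of which 98.5% lay in 10 cells. At steady state it was at 0.399 and 60.3 CPM (7.24). Calca, the gene of calcitonin and its related peptide, was at 3.05 and 79.5 CPM (4.70, 4.41 to 5.01), and it led the ungated cells together with Gata3, Il7r, Rora and Il1rl1. Those cells were 15.3% of the young and 11.7% of the aged library, at a median of 749 and 1223 UMIs.

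Other lists showed little over all cells. Of 14 receptors of retention and release 12 lay below 0 (median -0.32 against -0.03 over all genes), and in stem-like cells 8 of 8 (median -0.53), with none past 2-fold. Of 16 S phase genes 14 lay above 0 (median 0.14) and of 16 G2 and M phase genes 15 below 0 (median -0.13). Medians of nuclear oxidative phosphorylation (-0.01), mitochondrially encoded (-0.06), glycolysis (0.05), MHC class I (-0.07) and ribosomal protein genes (0.07) lay within 0.10 of the median of all genes.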

How the data were processed

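The deposited table holds raw UMI counts per gene and cell for 23016 genes in 6 libraries, which the authors had already reduced to called cells. Reads came from a droplet 3′ kit, per the labels' protocols. The submitters' processing notes name featureCounts 1.6.4 with Subread, the aligner STAR 2.5.3a, Cell Ranger 3.0.2 and UMI-tools, without saying what each did, and the GRCm38 build. Exon counting at the 3′ end can divide reads among near-identical genes, so 31-base words of the last 500 bases were compared between genes.

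Cells with at least 500 UMIs and at most 10% mitochondrial UMIs were kept, with no doublet caller run. Each cell was scored for 16 marker sets as the mean z-score of log counts, limited to 5 either way. The z-scores were taken separately within marrow after stroke and marrow at steady state. A class needed 3 detected markers, a score of 0.5 and a lead of 0.2 over the next class, except between 4 related pairs (stem and progenitor, progenitor and immature neutrophil, immature and mature neutrophil, progenitor and monocyte). The markers were written down first, but this scoring rule was set after the counts had been seen, in its second version. The first required the lead for every pair, and only class sizes, depth and leading genes were looked at under it. The stricter and looser gates were also set after the counts had been seen. Members and gene lists were chosen with earlier results of these data known.

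Counts were summed per library and class and scaled to CPM. Ratios carry exact conditional binomial intervals and shares exact Clopper-Pearson intervals, both at 95% and for counting error only, and a count of 0 was set to a floor of 3 counts. Classes with at least 50 cells a side were compared, 9 in all. In each, the text could name up to 10 higher and 10 lower genes past 2-fold, ranked by the interval bound nearest 0 (5 and 5 in classes beyond the largest 6), list members past 2-fold and the 4 highest members of each of 24 lists. Genes set side by side across classes, and Calca, were singled out after their values were seen. Alternatives were TMM scaling (edgeR 4.0.16), median-ratio scaling, equal weight for cells, thinning to 1000 UMIs, other minimums, folds and gates, and leaving out the deepest cells. Cells with at least 2000 UMIs, and cells without shared barcodes, were alternatives added after seeing the data. The calculations used Python 3.11.15, scipy 1.17.1 and R 4.3.3, and were tested on simulated data.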

Additional observations from a re-analysis of the deposited data

Results flagged for a closer look

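A few genes were past 2-fold in opposite directions in the 2 contexts, and the difference between contexts was not tested. Stfa1 in dividing pre-neutrophil-like cells had a log2 ratio of aged over young of 1.51 after stroke and -1.30 at steady state, with 99.3% of the young and 92.5% of the aged UMIs after stroke in 10 cells. Hist1h1b in immature neutrophil-like cells had 1.66 and -1.09. After stroke its ratio was 0.10 with equal weight for cells and 0.34 with cells reduced to 1000 UMIs, so no reversal is read for it. In NK-like cells Il7r had 2.09 and -1.37, and Klrb1b, an inhibitory receptor whose reads can be shared with related genes, 1.52 and -2.55. The steady-state ratios rest on 47 young and 27 aged UMIs of Il7r and 51 and 13 of Klrb1b. S100a9, abundant in neutrophils, was at 42010 and 29425 CPM in NK-like cells at steady state, against 1057 and 613 CPM after stroke. The class is thus not like for like in the 2 contexts, and the source of the S100a9 reads was not tested. No reversal is read for Il7r and Klrb1b. In erythroid-like cells the azurophil granule genes Ctsg and Prtn3 had 2.20 and -1.03, and 1.04 and -1.15. Ctsg rests on 14 young and 86 aged UMIs after stroke, and with equal weight for cells its ratio there was 0.81. S100a9 was at 4343 and 4484 CPM in erythroid-like cells at steady state, against 238 and 373 CPM after stroke. The contexts are not like for like in this class either, and no reversal is read for Ctsg. Prtn3 was at 20.9 and 42.8 CPM after stroke, under the 67.3 and 68.3 CPM of NK-like cells, which should lack it. With cells reduced to 1000 UMIs its ratio was -0.12, so no direction is read for Prtn3. The progenitor markers summed to 45.9 CPM in the young and 116 CPM in the aged erythroid-like cells after stroke, with 0 of 6 at 0, and their part in the result was not tested.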

How the results depend on the processing

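No paired analysis was possible because each group has 1 library. The counts of genes past 2-fold depended on the minimum level and the fold. In the order all cells, stem-like, progenitor-like, dividing, immature, mature, monocyte-like, T-like, NK-like and erythroid-like, a minimum of 10 UMIs alone gave 1608, 1310, 1075, 843, 1060, 1023, 983, 1006, 1076 and 814 genes, a minimum of 100 CPM 12, 10, 7, 4, 2, 17, 7, 23, 24 and 10, a fold of 1.5 237, 374, 149, 205, 171, 558, 189, 278, 384 and 243, and a fold of 3 15, 21, 2, 8, 11, 22, 6, 21, 19 and 6. The stem cell ageing list had 17 members past 2-fold with a minimum of 10 UMIs alone. With cells thinned to 1000 UMIs there were 104 genes in all cells, 34 stem-like, 6 dividing, 23 mature, 6 T-like, 15 NK-like and 10 erythroid-like. With equal weight for cells there were 233 progenitor-like, 163 dividing, 68 immature and 203 erythroid-like. Without the 5% of cells with the most UMIs there were 51 progenitor-like, 62 monocyte-like and 56 erythroid-like. Gating on thinned cells gave 48 dividing, 28 T-like, 44 NK-like and 69 erythroid-like, and the looser gate 126 NK-like. TMM scaling and the median ratio reversed no named gene.

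Log2 ratios of shares under the thinned gate were -0.87 for stem-like, -1.07 for mature, -0.39 for conventional dendritic-like, -1.92 for plasmacytoid dendritic-like, -0.05 for NK-like and -0.17 for erythroid-like cells. That of progenitor-like cells was 0.57 with at least 1000 UMIs and 0.92 with at least 2000. These genes had the opposite direction under an alternative. Without the 10 highest cells, Hbb-bt stood at 0.75 in stem-like, Cd74 at 0.80 and H2-Aa at 0.50 in dividing, S100a10 at -0.29 and Ighm at -1.46 in mature, Lyz2 at -3.32 and Retnlg at -2.37 in T-like and Cenpa at -0.26 in NK-like cells. With equal weight, H2-Q7 stood at -0.21 in progenitor-like, Birc5 at -0.38, Hist1h2ae at -0.08 and Prtn3 at -0.06 in immature, S100a10 at -0.29 in mature, Camp at -0.93 and Ngp at -0.43 in monocyte-like and Lyz2 at -0.39 in T-like cells. With thinning, Elane stood at -0.24 and Hist1h2ae at -0.01 in immature, Ighm at -0.25 and S100a10 at -0.92 in mature, Ltf at -0.03 in monocyte-like, Lyz2 at -1.57 in T-like, Spry2 at 0.19 in NK-like, and Camp at -0.53 and Prtn3 at -0.12 in erythroid-like cells. The cause was not tested. Of the 9 classes compared, the mature, T-like and NK-like classes had the fewest summed UMIs. Depth per cell differed most between the libraries in the progenitor-like class, with medians of 1280 UMIs in the young and 16952 UMIs in the aged library. Having 1 library a group leaves animal, sort and library effects in every ratio.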
